A study of Mus musculus with 6 samples.

Results

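The genes described here are the mouse genes whose symbol is Zfp followed only by digits, the symbol given to most zinc finger protein genes of this species, with Zfp36 left out. Members were selected on raw counts, as the genes of this form with at least 10 counts in at least 3 of the 6 libraries. Of 342 such genes in a table of 21878 genes, 288 met this rule, and 286 of them were among the 11459 genes tested. Members were thus chosen by their count levels in both groups, with no direction, but a gene that reached 10 counts only in the libraries of 1 group had to differ between the groups. That applied to 10 members that reached 10 counts only in PBS libraries, of which 9 were tested and all 9 were called lower, and to Zfp811, which reached them only in β-elemene libraries and was called higher. Their calls support nothing about the members, and the main counts are also given without them.

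Cells of wild-type C57BL/6 mice were used throughout: marrow was grown into macrophages with 50 ng/mL of the growth factor M-CSF. In a transwell with pores of 0.4 µm these macrophages then faced LLC cells, a lung carcinoma line of mice, for 48 h, so that both groups carried the same exposure to tumour cells. After the medium was replaced, 1 group received β-elemene, a sesquiterpene from plants, at 100 µg/mL and the other the same volume of buffered saline (PBS), each for 24 h. RNA from 3 libraries of each group was sequenced, and the titles of the samples give the groups. The submitters' names for the libraries hold the letters M1 (β-elemene) and M2 (PBS), which the labels do not explain. No label says whether the 3 libraries of a group came from separate cultures, so the p-values rest on a spread among 6 libraries that may be technical.

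Most of these genes encode proteins with repeated C2H2 fingers, small folds that hold a zinc ion and read bases in the DNA groove. In mammals the largest group joins such fingers to a KRAB domain, which binds the co-repressor Trim28 and through it recruits histone methyltransferases and other silencing enzymes, often to transposable elements. KRAB genes sit in tandem clusters and have multiplied rapidly in rodents, while the genes without a KRAB domain include older activators, RNA-binding proteins and ubiquitin or SUMO ligases. A search of the longest reading frames of the GENCODE transcripts found a KRAB match in 173 members and none in 114, and 1 member had no reading frame. The median member had 11 C2H2 fingers, the highest number was 36, and 4 members (Zfp330, Zfp503, Zfp703 and Zfp839) had no finger of the searched spacing. The label of zinc finger genes thus held for nearly all members, but not all are transcription factors: Zfp207, for example, is a spindle and kinetochore protein. The match is a call by a sequence profile and can miss variant domains: Zfp263, whose human counterpart is annotated with a KRAB domain, had no match.

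The 4 promoters below belong to Zfp811 and Zfp558, which rose most, and to Zfp101 and Zfp971, which were among the members that fell most. Each runs from 250 bases before to 50 bases after a RefSeq start on GRCm38.p6. Capitals mark matches to either the CCAAT box (letters CCAAT) or the GC box (letters GGGCGG), read on both strands. Zfp811 lies at chr17:32809882-32810181 and Zfp101 at chr17:33394588-33394887, both on the minus strand. The Zfp558 entry is 1 of 2 for that gene and lies at chr9:18473596-18473895 on the minus strand, and Zfp971 lies at chr2:178023034-178023333 on the plus strand.
Zfp811: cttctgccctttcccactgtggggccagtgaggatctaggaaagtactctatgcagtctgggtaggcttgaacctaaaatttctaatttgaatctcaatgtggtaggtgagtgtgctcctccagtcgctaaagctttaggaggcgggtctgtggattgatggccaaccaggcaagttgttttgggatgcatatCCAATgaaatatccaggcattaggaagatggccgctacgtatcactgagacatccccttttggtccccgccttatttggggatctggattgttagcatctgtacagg
Zfp558: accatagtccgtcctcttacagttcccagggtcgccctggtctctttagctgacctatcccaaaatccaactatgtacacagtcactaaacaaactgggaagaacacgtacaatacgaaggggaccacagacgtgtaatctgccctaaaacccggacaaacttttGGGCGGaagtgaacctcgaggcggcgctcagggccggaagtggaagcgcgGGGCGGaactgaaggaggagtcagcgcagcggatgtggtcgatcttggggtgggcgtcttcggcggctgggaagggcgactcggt
Zfp101: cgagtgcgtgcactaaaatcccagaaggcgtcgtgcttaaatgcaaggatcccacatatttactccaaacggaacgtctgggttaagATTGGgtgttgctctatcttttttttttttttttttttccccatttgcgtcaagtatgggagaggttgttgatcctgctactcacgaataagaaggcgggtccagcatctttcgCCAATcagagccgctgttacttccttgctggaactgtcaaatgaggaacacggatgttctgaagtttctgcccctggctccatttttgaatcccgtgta
Zfp971: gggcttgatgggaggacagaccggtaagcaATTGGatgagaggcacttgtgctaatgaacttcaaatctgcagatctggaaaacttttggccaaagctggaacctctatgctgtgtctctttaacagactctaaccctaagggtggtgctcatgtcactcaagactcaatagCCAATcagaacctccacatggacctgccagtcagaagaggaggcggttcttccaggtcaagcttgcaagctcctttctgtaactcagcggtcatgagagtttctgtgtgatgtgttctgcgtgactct
The Zfp811, Zfp101 and Zfp971 windows held a CCAAT box and no GC box, and the Zfp558 window held a GC box and no CCAAT box. Their counts of the CG dinucleotide were 5 for Zfp811, 22 for Zfp558, 13 for Zfp101 and 4 for Zfp971.

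Promoter entries were found for 243 of the 288 members, 296 entries in all. They were set beside all 32851 promoter entries and beside the 11373 entries found for tested genes. The CCAAT box was held by 47% of member entries, 37.9% of those of tested genes and 37.4% of all. The GC box was held by 46.3% of member entries, 62.1% of those of tested genes and 35.7% of all. Within the members the GC box was held by 60.7% of the entries of genes that rose, 36% of those that fell and 53.2% of those that did not pass. It was also held by 35.9% of the entries of KRAB-matched members and 61.9% of the others. The median entry had 19 CG dinucleotides among genes that rose and 13 among those that fell, 11 with a KRAB match and 22 without. The searched forms of motifs of inflammatory promoters were rare in all 3 groups of entries. The core of the interferon response element was in 2.03% of member entries, 3.29% of those of tested genes and 3.44% of all. A perfect NF-kB consensus site was in 0 of the 296 member entries, 0.202% of those of tested genes and 0.155% of all. TGACTCA, an AP-1 site, was in 3.04% of member entries, 3.84% of those of tested genes and 5.2% of all. The TATA box (letters TATAAA) was in 5.74% of member entries, 7.03% of those of tested genes and 13.6% of all. A match of letters is a description and not a bound site.

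Total counts were 18916844 to 20550078 in the β-elemene libraries and 20524959 to 20729887 in the PBS libraries. The TMM scaling factors were 0.794 to 0.812 in β-elemene libraries but 1.24 to 1.26 in PBS libraries, so the choice of scaling bears on every direction given here. Macrophage markers summed to 17299 to 17864 CPM (counts normalised to sequencing depth with TMM factors, the unit of the levels given here) with β-elemene and 13038 to 14012 CPM with PBS, with 9 of 10 listed markers in the table and tested. The 8 lung carcinoma and epithelial markers summed to 0.0615 to 0.325 CPM with β-elemene and 119 to 146 CPM with PBS. Nearly all of the PBS sum was Cdh1 (mean 134 CPM), the only 1 of the 8 that was tested, and Krt19 and Cldn4 were at 0. This sum is thus in effect the level of 1 gene and does not show carcinoma cells. The 6 fibroblast markers summed to 1.69 to 3.87 CPM with β-elemene and 13.2 to 17.2 CPM with PBS. The neutrophil markers summed to 27.4 to 32.1 CPM with β-elemene and 10.8 to 15.1 CPM with PBS, and the T cell markers, mostly Lck, to 32.1 to 39.2 CPM with β-elemene and 5.79 to 7.56 CPM with PBS. B cell markers summed to 0.984 to 1.90 CPM with β-elemene and 1.94 to 4.45 CPM with PBS, and dendritic cell markers to 4.23 to 10.97 CPM with β-elemene and 4.03 to 4.85 CPM with PBS. Mast cell markers, mostly Hdc with Fcer1a at 0, summed to 151 to 190 CPM with β-elemene and 6.25 to 14.9 CPM with PBS. The part of these cells or genes in the results was not tested. In such bulk samples a change in the cells of a type and a change of the marker genes within the macrophages cannot be told apart.

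More of the Zfp genes fell than rose with β-elemene, and a few rose steeply. Of the 286 tested members 144 (50.3%) fell and 52 (18.2%) rose in edgeR's quasi-likelihood test at an adjusted p below 0.05 (Benjamini-Hochberg), and 90 did not pass. Over all 11459 genes 76.7% passed in either direction, 40.2% lower and 36.6% higher. The median log2 fold change (β-elemene over PBS) was -0.35 over the members and -0.06 over all genes. The members were at lower levels, with a median mean of 6.89 CPM against 24.0 CPM over all genes. At a mean of 5 CPM or more 42.2% of members fell and 27.2% rose, against 37.7% and 41.2% of all genes. In that range 14.5% of members fell and 7.51% rose by at least 2-fold, against 12.9% and 17.4% of all genes. Without the 10 tested members that passed the level rule through 1 group alone, 135 of 276 fell and 51 rose. Changes of at least 2-fold were found in 72 members that fell (25.2%) and 14 that rose (4.90%), against 2095 lower and 1951 higher of the 11459 genes. Changes of at least 4-fold were found in 18 members that fell and 8 that rose. No 4-fold count over all genes is given here, so these counts describe the members only and do not set them apart from other genes. The 3 β-elemene libraries did not overlap with the 3 PBS libraries in 218 members (76.2%), against 79.9% of all genes. The summed level of the members was 4206 to 4396 CPM with β-elemene and 4024 to 4144 CPM with PBS, but this order rests on the TMM factors. Before scaling, 64629 to 71504 counts of a β-elemene library were assigned to the members, and 103634 to 106319 counts of a PBS library.

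**Figure D1:**
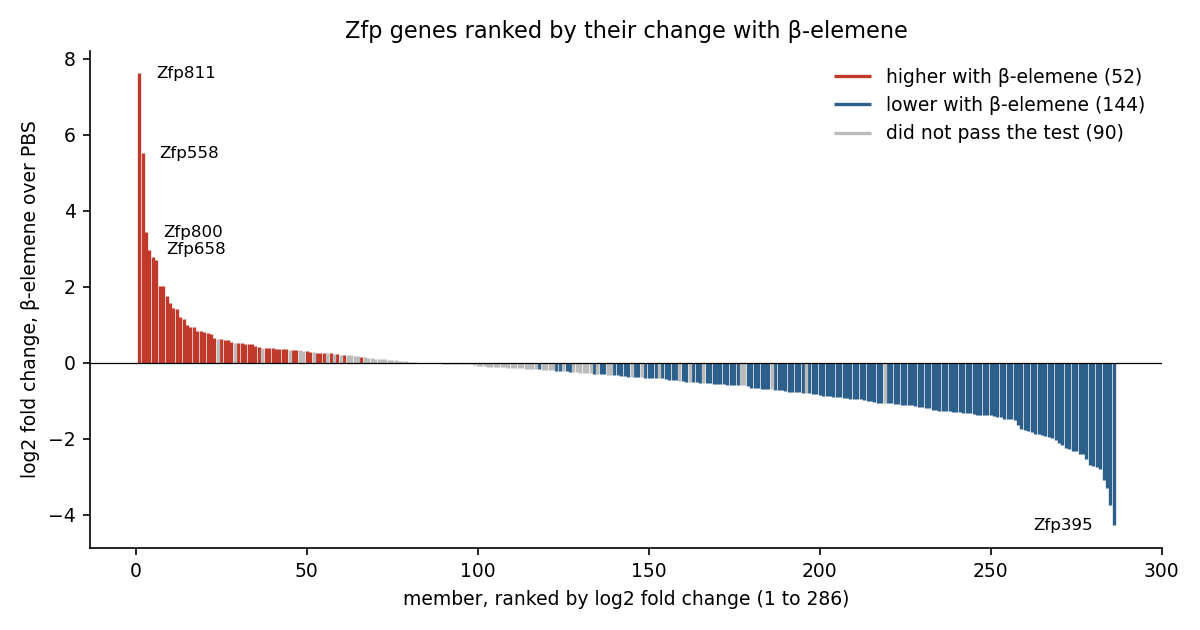
Each vertical line is 1 of the 286 tested members, ranked along the horizontal axis by its log2 fold change of β-elemene over PBS (vertical axis), coloured by the edgeR call. The 144 members that fell outnumber the 52 that rose, and the steepest changes on the left are Zfp811 (7.61), Zfp558 (5.51), Zfp800 (3.43) and Zfp658 (2.98).

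The scaling changed the split of calls. With the upper quartile 25 members were called higher and 200 lower, and with library size alone 17 were called higher and 240 lower. The median over all genes was -0.37 with the upper quartile, -0.70 with library size alone and -0.02 with median-of-ratios factors. Relative to the median of all genes the members' median was -0.29 or -0.30 under each of the 4 scalings. A scaling shifts all genes together, so this difference could hardly change and supports nothing about the members. Under all 4 scalings 137 members were called lower and 17 higher, while 18 were called in both directions by different scalings. That is 47.9% lower and 5.94% higher, against 38.3% lower and 18.9% higher over all genes, of which 1262 were called both ways. Of the 90 members that did not pass with TMM, 55 were called lower with the upper quartile and 79 with library size alone, so a member described here as not passing did not pass after TMM scaling. The 17 called higher under all 4 were Zfp131, Zfp263, Zfp275, Zfp281, Zfp319, Zfp324, Zfp503, Zfp513, Zfp558, Zfp568, Zfp658, Zfp710, Zfp719, Zfp800, Zfp811, Zfp821 and Zfp945. Of the 52 members called higher after TMM scaling, 29 had a log2 fold change below 0 with library size alone.

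**Figure D2:**
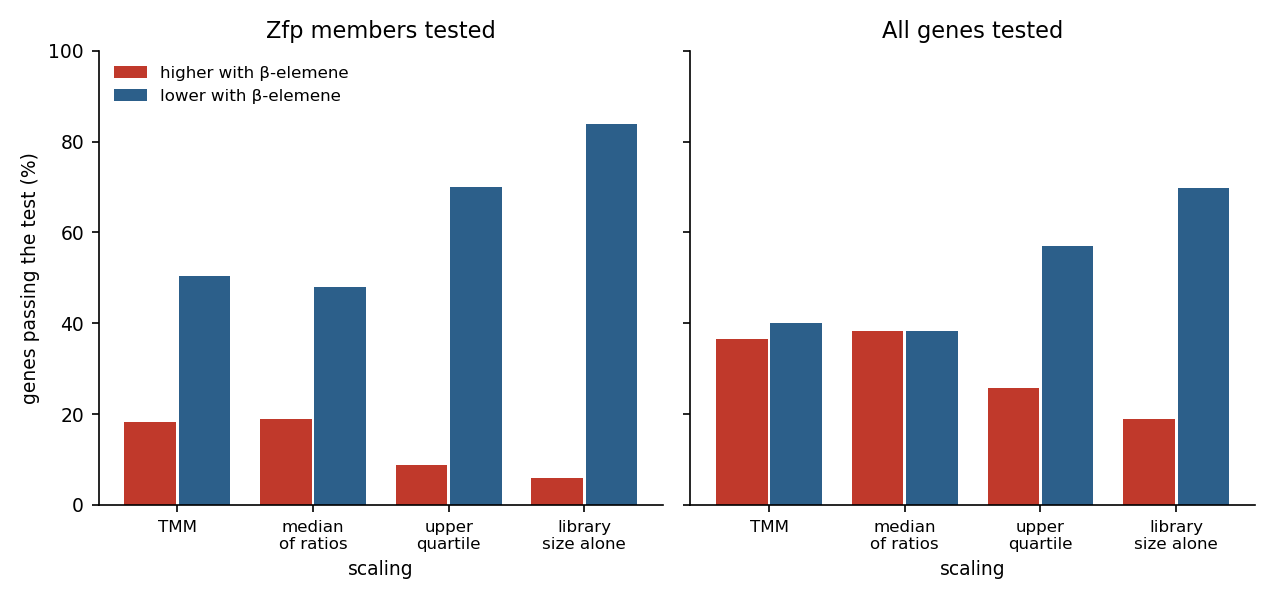
Bars give the percentage of tested genes called higher (red) or lower (blue) with β-elemene under 4 scalings, for the 286 Zfp members (left) and all 11459 genes (right). Lower calls exceed higher calls among the members under every scaling shown. Over all genes they also exceed them with TMM (4602 against 4189), the upper quartile (6528 against 2947) and library size alone (8003 against 2166), and median-of-ratios factors gave 4385 of each.

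The rises were led by KRAB genes with low levels in PBS. Zfp811 stood at 15.6, 12.2 and 13.6 CPM in the β-elemene libraries and at 0.0774, 0.0777 and 0.0390 CPM in the PBS libraries. The PBS values rest on 2, 2 and 1 counts, so the log2 fold change of 7.61 ± 0.27 (SE, adjusted p = 1.42e-11, edgeR) has a thinly measured base, and this gene passed the level rule through the β-elemene libraries alone. Zfp558, whose human counterpart represses a mitophagy gene, stood at 48.1, 44.4 and 44.9 CPM with β-elemene and at 1.08, 0.699 and 1.21 CPM with PBS. Its log2 fold change was 5.51 ± 0.13 (adjusted p = 3.48e-13, edgeR). In neither gene did the groups overlap, which the choice of the 12 largest rises required.

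Zfp658, whose human counterpart is a zinc-responsive repressor, had 7.56, 7.03 and 5.70 CPM with β-elemene and 0.852, 1.09 and 0.624 CPM with PBS (log2 fold change 2.98 ± 0.23). Its neighbour Zfp719 had 15.8, 17.2 and 13.2 CPM with β-elemene and 2.21, 1.94 and 2.53 CPM with PBS (2.79 ± 0.15). These 2 KRAB genes lie 3417 bases apart on chromosome 7, and the nearest tested genes outside the pair also rose on the log2 scale, Cd33 by 1.48 and Siglece by 2.31, both sialic acid receptors of myeloid cells. Zfp324, also with a KRAB match, had 20.0, 24.3 and 23.8 CPM with β-elemene and 5.73, 5.79 and 5.42 CPM with PBS (2.01 ± 0.11), while its neighbour Zfp446, 1952 bases away, did not pass, with a log2 fold change of 0.00 (-0.64 and called lower with library size alone).

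Among the members without a KRAB match, Zfp800 had the largest rise. It stood at 270, 251 and 281 CPM with β-elemene and 25.7, 22.7 and 26.2 CPM with PBS (log2 fold change 3.43 ± 0.07, adjusted p = 1.07e-13, edgeR). Zfp503, a co-repressor of the NET family, had 9.28, 11.8 and 8.58 CPM with β-elemene and 1.20, 1.79 and 1.52 CPM with PBS (2.71 ± 0.19). Zfp281, a regulator of pluripotent stem cells, had 140, 108 and 146 CPM with β-elemene and 31.7, 31.4 and 33.8 CPM with PBS (2.03 ± 0.10). In all 3 genes every β-elemene library lay above every PBS library, which the choice of the 12 largest rises required.

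The remaining rises of the 12 largest were Zfp821 (1.76), Zfp319 (1.58), Zfp513 (1.45), linked in humans to retinal disease, and Zfp263 (1.40). Zfp263 stood at 213, 206 and 184 CPM with β-elemene and 72.6, 74.0 and 81.8 CPM with PBS. Zfp319 overlaps Usb1, which rose by 3.06 on the log2 scale, and Zfp513 ends 5 bases from Ppm1g and 81 bases from Snx17. The strand setting of the counting is not given in the sources used here, so reads of such overlapping genes may not be told apart and the values of Zfp319 are uncertain.

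**Figure D3:**
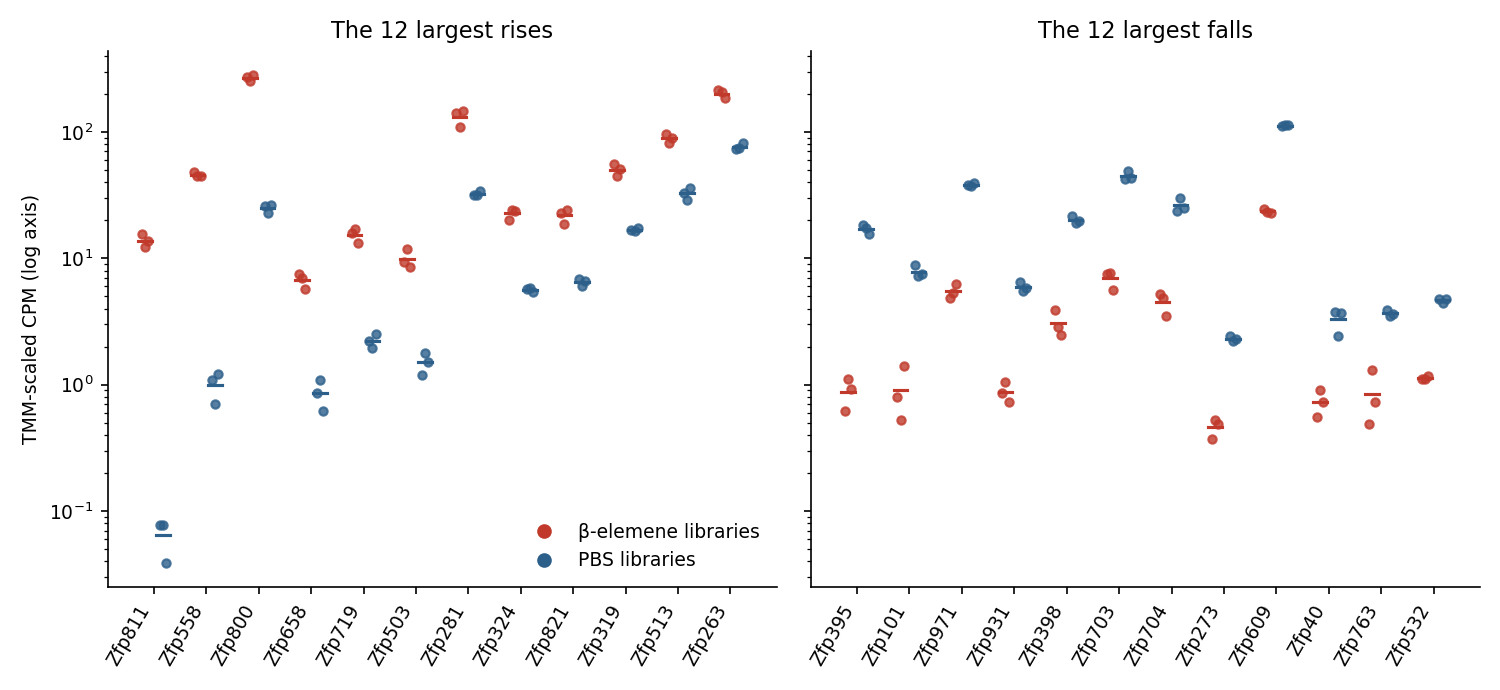
Points are TMM-scaled CPM (log axis) in each of the 3 β-elemene libraries (red, left of each pair) and 3 PBS libraries (blue), with a bar at the mean, for the 12 largest rises and 12 largest falls among members with a mean of at least 1 CPM. The groups do not overlap in any of the 24 genes, which the choice of genes required.

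The steepest fall among the members with a mean of at least 1 CPM was that of Zfp395, whose human counterpart is a hypoxia-induced factor. It stood at 0.615, 1.11 and 0.919 CPM with β-elemene and at 18.4, 17.2 and 15.6 CPM with PBS, a log2 fold change of -4.27 ± 0.18 (adjusted p = 7.28e-11, edgeR). Its relative Zfp704 had 5.23, 4.88 and 3.49 CPM with β-elemene and 23.9, 29.8 and 25.1 CPM with PBS (-2.53 ± 0.14). Zfp703, the NET family relative of Zfp503, had 7.50, 7.61 and 5.64 CPM with β-elemene and 42.7, 48.7 and 43.3 CPM with PBS (-2.70 ± 0.11). The 2 NET genes thus moved in opposite directions, and both calls held under all 4 scalings.

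Zfp609, a partner of the cohesin loader and the Integrator complex in mice, also fell. It had 24.5, 23.1 and 22.9 CPM with β-elemene and 111, 112 and 114 CPM with PBS (log2 fold change -2.26 ± 0.06). Zfp532, on chromosome 18, had 1.11, 1.11 and 1.16 CPM with β-elemene and 4.72, 4.47 and 4.75 CPM with PBS (-2.04 ± 0.20). In human cells the product of ZNF532 works in a chromatin complex with those of ZNF592 and ZNF687, whose mouse genes rose after TMM scaling. Their log2 fold changes were 0.49 for Zfp592 and 0.56 for Zfp687, but both were below 0 with library size alone, at -0.14 and -0.08.

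The other 7 of the 12 largest falls were KRAB-matched genes. Zfp101 had 0.799, 0.521 and 1.41 CPM with β-elemene and 8.87, 7.18 and 7.48 CPM with PBS (log2 fold change -3.09 ± 0.25). Zfp971 had 4.86, 5.27 and 6.25 CPM with β-elemene and 38.3, 37.1 and 39.4 CPM with PBS (-2.81 ± 0.10), and its neighbour Zfp931 had 0.861, 1.04 and 0.736 CPM with β-elemene and 6.50, 5.48 and 5.77 CPM with PBS (-2.75 ± 0.21). These neighbours on chromosome 2 lie 30587 bases apart, and Gm14326 on the other side of Zfp971 fell by 2.50 on the log2 scale. Of the transcribed sequence of Zfp971, cut into windows of 100 bases, 22.1% also occurred in another gene, so its counts are uncertain. The other falls were Zfp398 (-2.72), Zfp273 (-2.32), Zfp40 (-2.17) and Zfp763 (-2.12), with β-elemene means of 3.06, 0.460, 0.733 and 0.843 CPM and PBS means of 20.2, 2.32, 3.30 and 3.66 CPM. Zfp273 reached 10 counts only in PBS libraries, so its place among the members already required a difference.

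The calls were split by the KRAB match. Of 172 tested KRAB-matched members 108 (62.8%) fell and 22 rose, with a median log2 fold change of -0.59. Of the 113 tested members without a match 36 (31.9%) fell and 30 rose, with a median of -0.10. Over all genes 40.2% fell and 36.6% rose, with a median of -0.06. Without the members that passed the level rule through 1 group alone, 100 of 163 fell and 21 rose with a match, and 35 of 112 fell and 30 rose without one. The summed level of the KRAB-matched members was 1136 to 1204 CPM with β-elemene and 1344 to 1401 CPM with PBS, and that of the others was 3070 to 3210 CPM with β-elemene and 2659 to 2740 CPM with PBS. The second order turns without the TMM factors: as a share of all counts the KRAB-matched members took 0.0923 to 0.0956% of a β-elemene library and 0.167 to 0.176% of a PBS library, and the others took 0.249 to 0.257% of a β-elemene library and 0.333 to 0.340% of a PBS library. The 47 tested genes with a KRAB match under other symbols had a median of -0.81, and 31 fell and 2 rose. The medians are descriptions of lists chosen with earlier results known, and the difference between them was not tested.

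**Figure D4:**
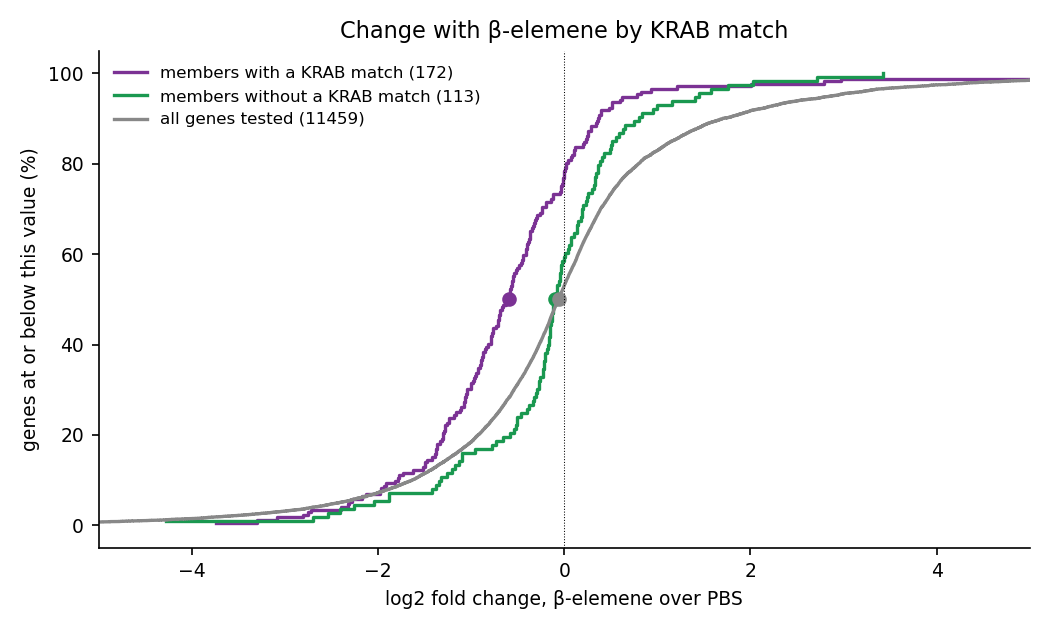
Cumulative percentage of genes (vertical axis) at or below each log2 fold change of β-elemene over PBS (horizontal axis, drawn from -5 to 5), with dots at the medians. The curve of the 172 KRAB-matched members lies to the left with a median of -0.59, while the 113 members without a match have a median of -0.10, close to the -0.06 of all genes.

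The level of a gene differed with the KRAB match and with the direction of change. The median mean level was 4.72 CPM in tested KRAB-matched members and 14.7 CPM in the others. Over all genes, those with a mean below 5 CPM had a median log2 fold change of -0.64, and 49.6% fell and 19.1% rose. Those at 5 CPM or more had a median of 0.01, and 37.7% fell and 41.2% rose. At 5 CPM or more 45 of 80 KRAB-matched members (56.2%) fell and 18 rose, with a median of -0.37. In the same range 28 of 93 members without a match (30.1%) fell and 29 rose, with a median of -0.08. Below 5 CPM the counts were 63 of 92 lower and 4 higher with a KRAB match, and 8 of 20 lower and 1 higher without one. Of these, 8 members with a match and 1 without had 10 counts only in PBS libraries, and without them the counts were 55 of 84 lower with a match and 7 of 19 lower without one. The part of the level in the result was not tested beyond this split.

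The members were also split by their number of fingers. With 12 or more fingers 74 of 125 members (59.2%) fell and 17 rose, and with 6 to 11 fingers 50 of 107 (46.7%) fell and 25 rose. With 5 or fewer 20 of 53 (37.7%) fell and 10 rose. The shares over all genes were 40.2% lower and 36.6% higher. Of the 125 members with 12 or more fingers 97 had a KRAB match. Among KRAB-matched members 65 of 97 with 12 or more fingers fell, against 43 of 75 with fewer. Without a KRAB match, 9 of 28 members with 12 or more fingers fell. In 21 tested members over 10% of the windows of 100 bases were shared with another gene, and 13 of these fell and 1 rose. The other 265 had 131 lower and 51 higher. The part of shared sequence in the counts was not tested beyond this split.

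Levels between genes were compared per kilobase of exon. Over the 6 libraries the highest means were 30.9 CPM per kb for Zfp207, 30.7 for Zfp263, 30.3 for Zfp800, 24.5 for Zfp513, 20.8 for Zfp710 and 16.6 for Zfp281. All 6 had no KRAB match and rose with β-elemene after TMM scaling, as did 36.6% of all genes. The ranking used the β-elemene libraries too, which favours genes that rose, so the direction of these 6 supports nothing about the members. With library size alone Zfp207 was below 0, at -0.05. The highest KRAB-matched member was Zfp869, at 10.9 CPM per kb, and the medians were 1.07 CPM per kb with a KRAB match and 2.72 without.

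Neighbouring members did not all share a direction. Members less than 250000 bases apart were joined into runs, and 115 members lay in 13 runs of 5 or more, of which 60 fell and 15 rose. In the 25 runs of 2 to 4 members 35 of 60 fell and 10 rose. Of the 112 tested members that lay alone 49 fell and 27 rose. The shares over all genes were 40.2% lower and 36.6% higher. The median log2 fold change was -0.40 in the long runs, -0.70 in the short ones and -0.15 in the members alone, and 94 of the 115 members in long runs had a KRAB match, against 39 of the 113 alone.

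The longest run, chr13:67038594-67827000, held 18 members, all with a KRAB match. In it 13 fell, among them Zfp273 (-2.32), Zfp493 (-1.48), Zfp759 (-1.42) and Zfp953 (-1.38). Zfp429 was called higher at 0.38 after TMM scaling but had -0.26 with library size alone, and Zfp712, Zfp708, Zfp455 and Zfp456 did not pass. Their log2 fold changes were 0.11, -0.59, 0.02 and 0.11, and with library size alone all 4 were below 0 and the last 3 named were called lower. The run chr7:24081877-24316698 had 7 of 9 members lower and 0 higher, with a median of -0.79, and the run chr7:4915181-5053723, with 0 KRAB matches among its 6 members, had 0 lower and 1 higher, with a median of 0.13.

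The widest spread was in chr17:32765496-33631716, where 11 members included the largest rise, Zfp811, and the large fall of Zfp101. Zfp811 lies between Zfp871, 7389 bases away, and Zfp799, 5392 bases away. Zfp871 stood at 109, 101 and 92.4 CPM with β-elemene and 81.3, 78.7 and 86.6 CPM with PBS, a log2 fold change of 0.29 ± 0.07 after TMM scaling that was -0.35 with library size alone. Zfp799 did not pass, with means of 6.56 CPM with β-elemene and 7.11 CPM with PBS (-0.12), but was called lower with the upper quartile (-0.43) and library size alone (-0.75). Zfp472 (-1.82), Zfp763 (-2.12), Zfp563 (-0.79) and Zfp81 (-0.90) fell in the same run, and Zfp870 (-0.04), Zfp952 (0.04) and Zfp414 (0.14) did not pass, though all 3 were called lower with library size alone. Zfp871 was the only other member of this run that passed upward in the TMM fit.

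**Figure D5:**
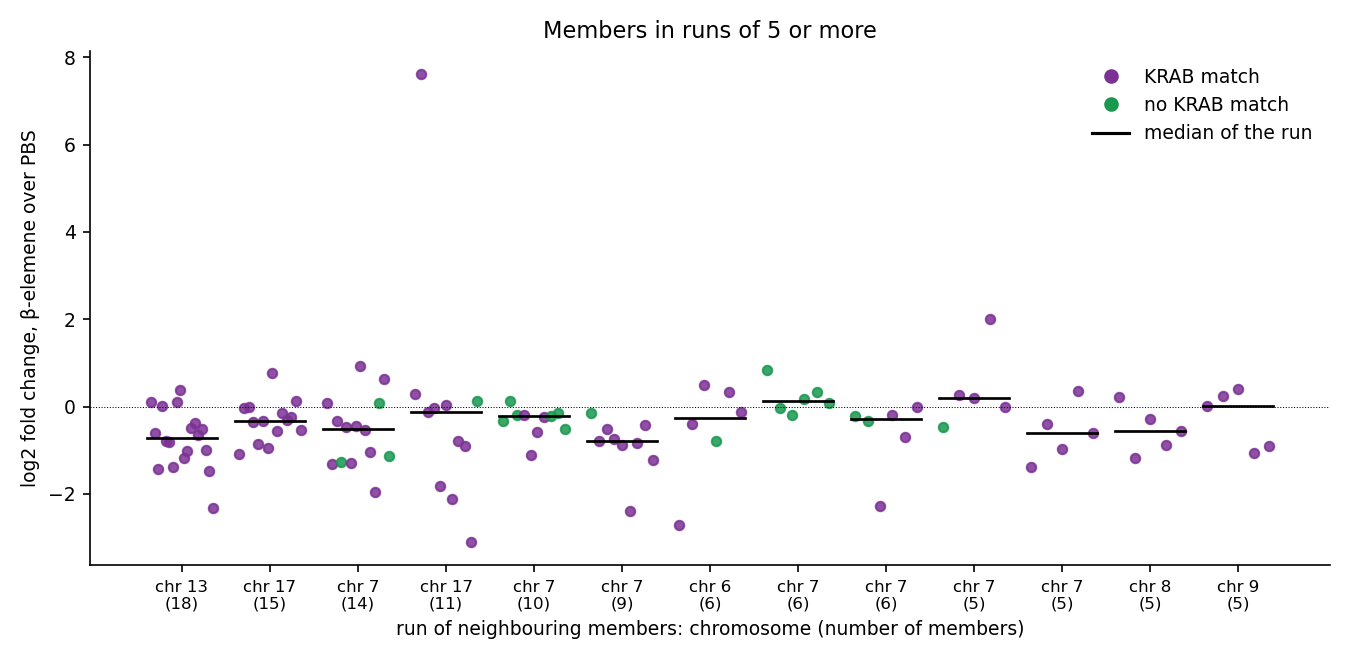
Each point is 1 tested member at its log2 fold change of β-elemene over PBS (vertical axis), in the 13 runs of 5 or more neighbouring members (horizontal axis, chromosome and number of members), purple with a KRAB match and green without, with a line at each median. The first run, of 18 members on chromosome 13, has a median of -0.72, and the run of 11 on chromosome 17 holds the point at 7.61 (Zfp811).

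Of the 7 listed genes that silence retroelements or imprinted loci in mice, 5 were tested, and 2 fell and 1 rose. So few genes bear no comparison with all genes, of which 40.2% fell and 36.6% rose. Zfp809, which silences murine leukaemia virus sequences, had 4.92, 4.69 and 5.33 CPM with β-elemene and 12.4, 11.2 and 12.6 CPM with PBS (log2 fold change -1.28 ± 0.12). Zfp932, a repressor of endogenous retroviruses, had 5.23, 2.93 and 3.25 CPM with β-elemene and 14.6, 14.3 and 14.2 CPM with PBS (-1.91 ± 0.17), with 18.5% of its windows shared with another gene. Zfp568, a repressor of an Igf2 transcript, had 22.3, 16.9 and 20.4 CPM with β-elemene and 9.76, 10.6 and 10.9 CPM with PBS (0.93 ± 0.11). Each of the 3 had groups that lay apart, as did 79.9% of all genes.

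Zfp445, which protects imprints, did not pass, with 74.0, 63.9 and 75.3 CPM with β-elemene and 73.9, 65.9 and 74.6 CPM with PBS (-0.01 ± 0.07). Zfp708, a repressor of another retroelement, did not pass either, with means of 0.519 CPM with β-elemene and 0.790 CPM with PBS (-0.59 ± 0.38), and 94.3% of its windows were shared with another gene. Both were called lower with the upper quartile (-0.32 for Zfp445 and -0.91 for Zfp708) and with library size alone (-0.64 and -1.23).

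Of 12 tested genes for proteins that act on RNA, ribosomes, ubiquitin or SUMO, 3 fell, 1 rose and 8 did not pass. Over all genes 40.2% fell and 36.6% rose, but 12 genes are too few for a comparison. Zfp207 had 240, 241 and 260 CPM with β-elemene and 162, 158 and 171 CPM with PBS (log2 fold change 0.59 ± 0.06, and -0.05 with library size alone). Zfp106, an RNA-binding protein needed by motor neurons, had 109, 113 and 111 CPM with β-elemene and 161, 156 and 162 CPM with PBS (-0.52 ± 0.05). The groups lay apart in both genes, as in 79.9% of all genes. Zfp326, a splicing and elongation factor, was at -0.54 and Zfp451, a SUMO ligase, at -0.58, and both fell.

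Zfp91, a ubiquitin ligase of the non-canonical NF-kB pathway, did not pass. It had 107, 112 and 123 CPM with β-elemene and 114, 110 and 119 CPM with PBS, a log2 fold change of 0.00 ± 0.06 in which the groups overlap. With the upper quartile it was called lower at -0.32, and with library size alone at -0.64. The others that did not pass were Zfp318 (0.04, and -0.28 with the upper quartile and -0.60 with library size alone), Zfp346 (-0.12), Zfp593 (-0.12), Zfp598 (-0.04), Zfp622 (-0.02), Zfp638 (-0.08) and Zfp830 (-0.15). All 7 were called lower with the upper quartile and with library size alone, Zfp638 for example at -0.39 and -0.72. Zfp598 is the ubiquitin ligase that marks collided ribosomes, and Zfp622 and Zfp593 take part in making the large ribosomal subunit.

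The list of 20 tested genes with known roles as transcription regulators had 11 higher (55.0%), 4 lower (20.0%) and 5 that did not pass, and a median of 0.24. Over all genes 36.6% were higher and 40.2% lower, with a median of -0.06. Beside Zfp503, Zfp281 and Zfp263, the rises were Zfp467 (0.95), Zfp516 (0.66), a regulator of brown fat genes, and smaller ones. All of these depended on the scaling: with library size alone Zfp467 was at 0.31 (adjusted p = 0.0567, edgeR) and Zfp516 at 0.02 (adjusted p = 0.798). Zfp687 (0.56), Zfp335 (0.51), Zfp592 (0.49), Zfp143 (0.30), Zfp219 (0.25) and Zfp384 (0.15) were all below 0 with library size alone, at -0.08, -0.12, -0.14, -0.34, -0.39 and -0.49. Zfp143 is a promoter-binding factor at chromatin loops, and it had 22.4, 22.2 and 21.0 CPM with β-elemene and 16.8, 18.2 and 18.3 CPM with PBS.

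The falls of this list were Zfp703, Zfp532, Zfp462 (-0.30) and Zfp148 (-0.18), the last a GC-box-binding factor. Zfp35 (-0.14), Zfp64 (-0.22), Zfp217 (-0.08), Zfp410 (0.23, and -0.41 with library size alone) and Zfp422 (-0.16) did not pass. Of these, Zfp35, Zfp64, Zfp217 and Zfp422 were called lower with the upper quartile (-0.40 to -0.54) and with library size alone (-0.72 to -0.86). Nearest the threshold, Zfp62 (0.21, adjusted p = 0.0472) and Zfp93 (-0.84, adjusted p = 0.0499) were inside, and Zfp367 (-0.26, adjusted p = 0.0516) and Zfp410 (adjusted p = 0.0517) outside, all by edgeR. Zfp367 was called lower with the upper quartile (-0.58) and library size alone (-0.90). Zfp62 was below 0 with the upper quartile (-0.11) and library size alone (-0.43). The calls of Zfp62, Zfp93, Zfp148, Zfp219, Zfp384 and Zfp462 were lost when certain single libraries were left out. Those of Zfp93, Zfp148 and Zfp462 were also lost with median-of-ratios factors (adjusted p = 0.0604, 0.0701 and 0.0722, edgeR) and in DESeq2 (0.126, 0.134 and 0.132).

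KRAB proteins silence through a shared set of co-repressors, and 30 of these were tested. In this list 14 fell (46.7%), 8 rose (26.7%) and 8 did not pass, with a median log2 fold change of 0.00, against 40.2% lower, 36.6% higher and a median of -0.06 over all genes. Trim28, the adaptor that KRAB domains bind, did not pass, with means of 121 ± 7.38 CPM with β-elemene and 114 ± 2.64 CPM with PBS (SD, n = 3 each), a log2 fold change of 0.08 (adjusted p = 0.21, edgeR) that was -0.23 with the upper quartile and -0.55 with library size alone, both called lower. Setdb1, the methyltransferase that Trim28 recruits, fell to 28.5 ± 1.05 CPM with β-elemene, against 59.2 ± 0.806 CPM with PBS (-1.06), and its partner Atf7ip was at -1.06 as well. These 3 genes were picked out after their values were seen.

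The largest rises of the co-repressors were Daxx (3.92), a histone H3.3 chaperone, Morc3 (2.10), a silencing ATPase of nuclear bodies, Hdac1 (1.99), a histone deacetylase, and Pphln1 (1.19), a subunit of the HUSH complex. Daxx stood at 645, 595 and 664 CPM with β-elemene and at 39.5, 41.2 and 45.5 CPM with PBS. The largest falls were Cbx3 (-2.01), a reader of methylated H3, and the DNA methylation genes Uhrf1 (-1.91), Dnmt1 (-1.49) and Dnmt3b (-1.35). Dnmt1 stood at 23.7, 25.4 and 24.3 CPM with β-elemene and at 71.7, 69.1 and 65.3 CPM with PBS. With the upper quartile 4 of the list were called higher and 21 lower, and with library size alone 4 and 26.

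Zinc finger families under other symbols were counted in the same way. Over all genes 40.2% fell and 36.6% rose, with a median of -0.06. Of 19 tested genes with a letter after the Zfp number 16 (84.2%) fell and 1, Zfp119b (1.19), rose, with a median of -0.90. Zfp36l1, which destabilises mRNAs and has CCCH fingers, was at -5.49 and Zfp874a at -1.75. Of 19 Zkscan and Zscan genes 9 (47.4%) fell, among them Zscan30 (-1.59) and Zkscan4 (-1.40), and 2 rose, with a median of -0.24. The 2 were Zscan29 (0.62) and Zscan21 (0.36), which were -0.02 and -0.28 with library size alone, and Zscan21 also lost its call with the upper quartile (0.04), without β-elemene replicate 3 (adjusted p = 0.0751, edgeR) or PBS replicate 2 (adjusted p = 0.0597). The 38 Zbtb genes were split, with 12 lower (31.6%) and 13 higher (34.2%) and a median of -0.10. Zbtb32 (3.62) and Zbtb8a (2.35) had the largest rises, and Zbtb46 (-2.23) and Zbtb44 (-1.37) the largest falls. Of 18 Zc3h genes, whose CCCH fingers bind RNA, 3 fell, among them Zc3h8 (-0.99, with adjusted p = 0.0825 in edgeR without β-elemene replicate 3 and 0.0554 without PBS replicate 1) and Zc3h3 (-0.64), and 10 (55.6%) rose, with a median of 0.29. The leading ones were Zc3h12c (2.76) and Zc3hav1 (2.28), the antiviral protein ZAP. With library size alone 6 Zbtb genes were called higher and 28 lower, and 4 Zc3h genes higher and 11 lower. Over all 11459 genes that scaling gave 2166 higher and 8003 lower.

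At the edge of the level rule, Zfp507 had 8, 13 and 7 counts with β-elemene and 10, 12 and 7 counts with PBS, and Zfp820 had 2, 0 and 0 counts with β-elemene and 10, 10 and 17 with PBS, both just inside. Just outside were Zfp365, with 6, 0 and 1 counts with β-elemene and 10, 9 and 9 with PBS, and Zfp428, with 8, 8 and 7 counts with β-elemene and 18, 9 and 21 with PBS. The members left out of the test were Zfp820 and Zfp827, and Zfp827 had 11, 6 and 10 counts with β-elemene and 6, 6 and 17 with PBS. Of the 54 genes of this symbol form that failed the rule, 15 had 0 counts in all libraries, 10 had more summed counts with β-elemene, 27 had more with PBS and 2 had equal sums.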

How the data were processed

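Poly(A) RNA libraries of 6 macrophage samples were read as paired ends, per the labels' protocols. Per the submitters' processing notes, HISAT2 2.2.1.0 was used, and 2 builds, mm10 and GRCm38.p6, appear there. The authors deposited raw counts per gene; how reads were counted, and with which strand setting, is not given in the sources used here. Members and gene lists were chosen with earlier results of these data known.

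The table was reduced by filterByExpr (at least 10 counts, 15 in total), scaled with TMM and tested with edgeR 4.0.16 in R 4.3.3 (robust glmQLFit, glmQLFTest, group as the only term) on the whole table, with Benjamini-Hochberg adjustment over 11459 genes at 0.05. The pipeline was tested on simulated data. The common biological coefficient of variation was 0.0709. Counting error limits genes below about 0.2 CPM, since 3 counts equal 0.184 to 0.195 CPM with β-elemene and 0.116 to 0.117 CPM with PBS, and such limits cover counting error only.

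Fingers, KRAB matches (pyhmmer 0.12.3, a profile from 171 sequences, E-value below 0.001) and windows of 100 bases shared with other genes came from GENCODE M21 transcripts, in place of the RefSeq proteins first planned, and exon lengths from the same annotation. The KRAB split of the alternatives was added after seeing the data. Coordinates and promoters are RefSeq's on GRCm38.p6.

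Genes were named if they had 1 of the 12 steepest rises or 12 steepest falls of passing members with no overlap between groups and a mean level of 1 CPM or more. Also named were the 8 members with the highest mean CPM, all tested members of 3 role lists, the 2 members nearest the threshold and the 2 nearest the level rule on each side, up to 4 co-repressor genes and up to 2 genes of each other family in each direction. Other members were named after their values were seen. Alternatives were 3 other scalings, 3 other filters, DESeq2 1.42.0, limma-voom (limma 3.58.1), a replicate block and leaving out each library.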

Additional observations from a re-analysis of the deposited data

How the results depend on the processing

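Scaling moved the counts most. With library size alone 2166 genes of all were called higher and 8003 lower, against 4189 and 4602 with TMM. For the members the upper quartile gave 25 higher, and library size alone 17 higher and 240 lower. For KRAB-matched members it was 9 higher with the upper quartile and 7 with library size alone, and for the others 16 higher and 69 lower with the upper quartile and 10 higher and 88 lower with library size alone. The co-repressor list had 4 higher under both scalings and 26 lower with library size alone. Zbtb genes had 6 higher under both, with 24 lower with the upper quartile and 28 with library size alone. Zkscan and Zscan genes had 1 higher with the upper quartile, and 0 higher and 18 lower with library size alone. The 0 stands beside 2 calls by edgeR with TMM, 2 by DESeq2 and 2 by limma-voom. Zc3h genes had 7 lower with the upper quartile, and 4 higher and 11 lower with library size alone. The cause is the scaling itself, which shifts all genes together.

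Named genes turned direction with library size alone: Zfp207 (-0.046), Zfp871 (-0.35), Zfp318 (-0.60), Zfp143 (-0.34), Zfp219 (-0.39), Zfp335 (-0.12), Zfp384 (-0.49), Zfp410 (-0.41), Zfp592 (-0.14), Zfp687 (-0.081), Zfp62 (-0.43), Zscan29 (-0.022) and Zscan21 (-0.28). With the upper quartile the values were Zfp871 -0.024, Zfp318 -0.28, Zfp143 -0.016, Zfp219 -0.069, Zfp384 -0.17 and Zfp62 -0.11. No named gene turned direction under the other alternatives run. Of the rule-named genes below 0 that did not pass with TMM, 14 were called lower with both the upper quartile and library size alone. They were Zfp91, Zfp445, Zfp708, Zfp346, Zfp593, Zfp598, Zfp622, Zfp638, Zfp830, Zfp35, Zfp64, Zfp217, Zfp422 and Zfp367. Zfp318, which was above 0 with TMM, was also called lower with both. The same held for Zfp799, Zfp952 and Trim28, which were named outside the rule. Calls of rises were lost for Zfp335 (0.20) and Zscan21 (0.041) with the upper quartile and for Zfp467 (0.31) and Zfp516 (0.020) with library size alone.

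Other methods and filters took calls from genes near the threshold. Zfp148 and Zfp462 lost theirs with median-of-ratios factors (adjusted p = 0.0701 and 0.0722, edgeR) and in DESeq2 (0.134 and 0.132), and Zfp462 in limma-voom (0.0511). Zfp93 lost it with median-of-ratios factors (0.0604), in DESeq2 (0.126), in limma-voom (0.0592), with no filter (0.0772), with the filter of 10 counts in 3 libraries (0.0502) and with the replicate block (0.0831). Zfp384 lost it with no filter (0.0732) and Zfp62 with the filter of 1 CPM (0.0501). Calls appeared for Zfp410 with median-of-ratios factors, DESeq2, limma-voom and the block, and for Zfp367 with no filter and the block.

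Leaving out each library in turn gave 4021 to 4296 genes higher and 4347 to 4477 lower over all genes, 46 to 56 and 128 to 138 over the members, 19 to 24 and 95 to 106 with a KRAB match, and 26 to 32 and 31 to 33 without one. The ranges were 8 to 9 higher and 14 lower for the co-repressors, 1 and 16 to 18 for Zfp genes with a letter, 10 to 13 and 9 to 13 for Zbtb, 1 to 3 and 8 to 10 for Zkscan and Zscan, and 8 to 12 and 3 to 4 for Zc3h. Zkscan and Zscan genes had 1 higher without β-elemene replicate 3 or PBS replicate 2. In edgeR's test the call of Zfp93 was lost without each of the 6 libraries (adjusted p from 0.0552 to 0.196). It was lost for Zfp462 without β-elemene replicate 1 or 2 or PBS replicate 2 or 3 (0.0677 to 0.179) and for Zfp62 without β-elemene replicate 3 or any PBS library (0.0866 to 0.220). For Zfp148 it was lost without β-elemene replicate 1 or 2 or PBS replicate 3 (0.0798 to 0.126), for Zfp219 without β-elemene replicate 1 or PBS replicate 1 or 3 (0.0657 to 0.117) and for Zfp384 without PBS replicate 1 or 3 (0.0619 to 0.133). Calls appeared for Zfp410 without β-elemene replicate 1 or PBS replicate 1 or 3, for Zfp217 without β-elemene replicate 2 and for Zfp367 without β-elemene replicate 3.

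No pairing by replicate number was evident: same-numbered libraries deviated together with correlations of -0.016, 0.089 and 0.038. Of the β-elemene libraries, replicates 2 and 3 correlated best with their own number, and replicate 1 with PBS replicate 3 (0.062). Correlations this weak cannot settle whether the libraries were paired. With a replicate block 53 members were higher and 146 lower.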
